A study of Drosophila melanogaster with 2 samples.

Results

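Gluconeogenesis, the making of glucose from small carbon compounds, is described here through 5 Drosophila melanogaster genes: Pepck1, Pepck2, PCB, fbp and G6P. They were listed by symbol for their place in the pathway, and all 5 were found by FlyBase gene number among 12083 genes listed in either library. RNA came from whole heads of adult flies of the white-eyed laboratory strain w1118 that ate a control diet or that diet with added sucralose, a chlorinated sugar derivative with a sweet taste, for 6 days. Flies of both groups were 4 to 7 days old when feeding began and 10 to 14 days old at collection, and the labels give neither their sex nor a time of day. The title of the study asks whether sucralose sets off a fasting response in neurons, and gluconeogenesis is a pathway known for its part in fasting.

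Each diet was represented by 1 library, of 10.3 M uniquely assigned reads (control) and 10.4 M (sucralose). Without replicates the effect of the diet cannot be tested, and no p-value is given. Every fold is the ratio of scaled read counts between these libraries, and its 95% interval, an exact binomial (Clopper-Pearson) interval, covers counting error only. A gene was counted as higher or lower past 1.5-fold on the scale of log2 (CPM + 0.5), where CPM is the scaled read count per 1 M reads, among 8889 genes whose reads in the libraries summed to at least 50. All 5 gluconeogenesis genes passed that floor, Pepck2 narrowly with 55 reads. In RNA of a whole head, fewer cells of a type and less RNA per cell cannot be told apart.

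Most steps of gluconeogenesis run glycolysis backwards with the same enzymes, and a few irreversible glycolytic steps need enzymes of their own. Pyruvate carboxylase, encoded by PCB, makes oxaloacetate from pyruvate in mitochondria, and phosphoenolpyruvate carboxykinase, encoded by the paralogs Pepck1 and Pepck2, turns oxaloacetate into phosphoenolpyruvate. Fructose-1,6-bisphosphatase (fbp) undoes the phosphofructokinase step, and glucose-6-phosphatase (G6P) releases free glucose. In flies the fat body passes much of its glucose 6-phosphate on to trehalose, the main blood sugar, and expression of G6P has been described in neuropeptide-releasing neurons of the brain.

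Of the 5 genes, Pepck1 was higher in the sucralose library by at least 1.5-fold, and the other 4 lay within 1.5-fold. The share of all 8889 genes that were higher by as much was 1.96%, and 4.12% were lower by as much. Pepck1 also passed the 2-fold mark, as did 0.337% of all genes upward and 1.37% downward. On the log2 (CPM + 0.5) scale the median difference of the 5 genes was 0.22, sucralose minus control, against -0.0016 over all genes, and 4 of the 5 differences were above 0, as were 49.6% of all genes. Reads of the 5 genes together numbered 10604 with control diet and 20576 with sucralose, a fold of 1.90 (1.86 to 1.95). Without Pepck1 the other 4 genes summed to 5203 and 6101 reads, a fold of 1.15 (1.11 to 1.19). PCB gave 4742 and 5616 of these reads, so that fold is mostly its own. The share of Pepck1 in the reads of the 5 genes was 50.9% under control diet and 70.3% under sucralose.

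**Figure D1:**
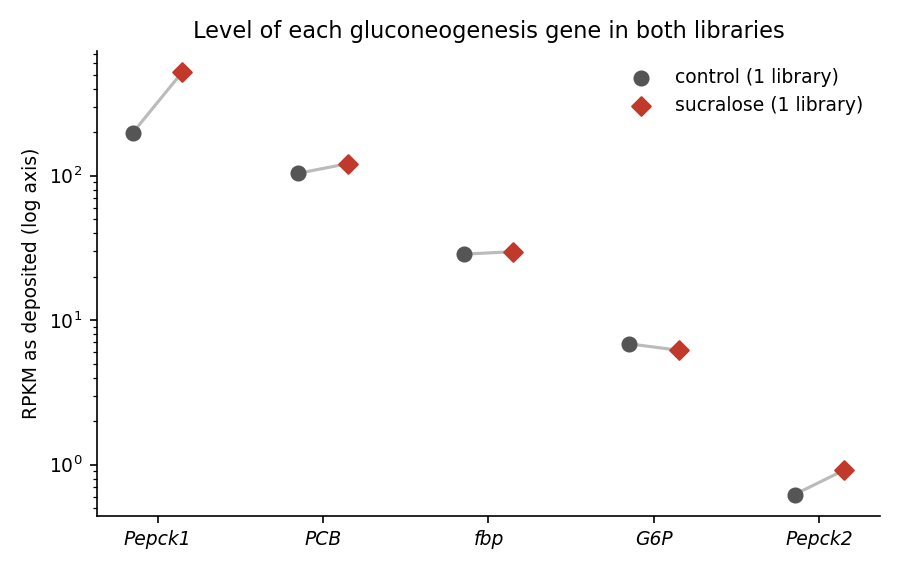
RPKM (reads per kilobase of gene model and 1 M reads, as the authors deposited it) of the 5 gluconeogenesis genes on a log axis, with 1 point for the control library (circle) and 1 for the sucralose library (diamond). Pepck1 stands at 198.2 and 523.2 and is the gene with the steepest line, while fbp and G6P are nearly level.

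The order of the levels per length was the same in both libraries: Pepck1, PCB, fbp, G6P and Pepck2. By RPKM, Pepck1 was 1.91 times the level of PCB under control diet and 4.32 times under sucralose. PCB stood 3.63 times and 4.07 times above fbp, and fbp 4.18 times and 4.81 times above G6P. G6P in turn stood 11.1 times and 6.75 times above Pepck2. The plot of RPKM by library shows this ladder, in which the sucralose library differs from the control mainly at its top rung.

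PCB makes the oxaloacetate that feeds the pathway. Control flies gave 4742 reads of it and sucralose-fed flies 5616, or 103.9 and 121.1 RPKM, and reads covered 99.5% and 99.6% of its gene model. The sucralose library was the higher by a fold of 1.16 (1.12 to 1.21), a difference above counting error but short of the 1.5-fold mark. Its log2 difference of 0.22 was above that of 84.0% of all genes. Among 1082 genes within 2-fold of its mean RPKM, PCB included, the central 95% of log2 differences ran from -0.75 to 0.47, so PCB lay inside the usual range for its level. Of the exon bases of PCB, 1.96% are shared with the antisense gene asRNA:CR44293 on the opposite strand.

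Pepck1, the enzyme of the committed step, was read 5401 times in control heads and 14475 times in sucralose-fed heads. The corresponding levels were 198.2 and 523.2 RPKM, and the gene took 0.0526% and 0.139% of all reads. The sucralose library was 2.63-fold higher (2.55 to 2.71), with a log2 difference of 1.39. By RPKM the gene moved from place 372 among all genes under control diet to place 149 under sucralose. Coverage of its gene model was 96.0% under control diet and 99.5% under sucralose, so nearly the whole model was read in both libraries.

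The log2 difference of Pepck1 was the 9th highest among the 8889 genes. Of 201 genes with a mean RPKM at least as high as its own, Pepck1 included, none of the others had as high a log2 difference. Among 293 genes within 2-fold of its mean RPKM, 1.71% were at least 1.5-fold higher, and the central 95% of log2 differences ran from -0.64 to 0.48. Among the most abundant genes of the head, then, the fold of Pepck1 stood at the upper end in these libraries, as the plot of difference against level shows.

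**Figure D2:**
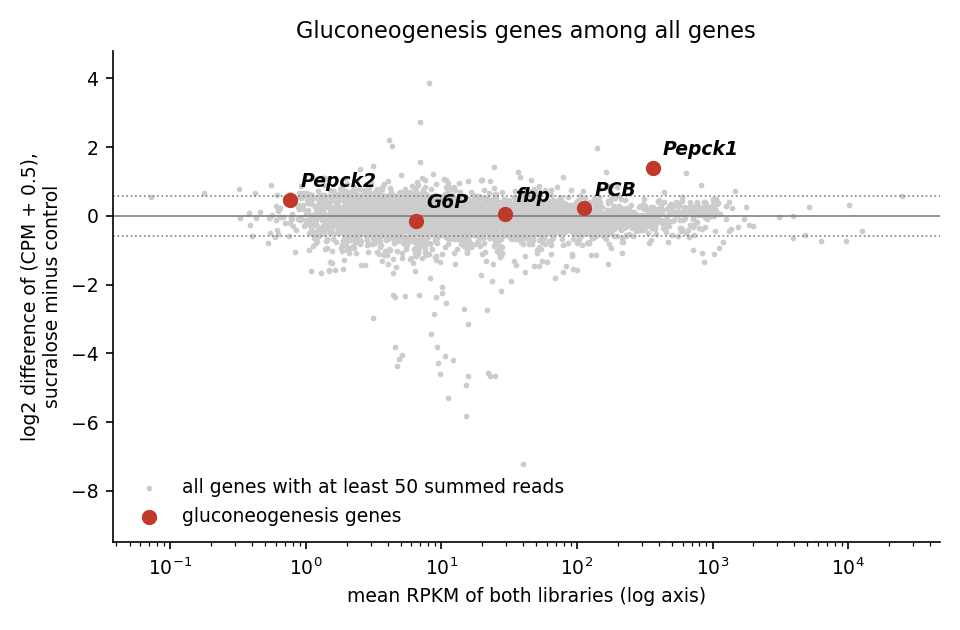
Log2 difference of (CPM + 0.5), sucralose minus control, against the mean RPKM of both libraries on a log axis, for 8889 genes (grey) and the 5 gluconeogenesis genes (red), with dotted lines at 1.5-fold. Pepck1 (1.39) lies above the grey points of its level, and the other 4 lie between the dotted lines.

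The exons of Pepck1 are also annotated to a second gene. In the BDGP6.54 annotation every one of the 2486 exon bases of Pepck1 also belongs to CG45087 on the same strand, and the RefSeq gene table lists CG45087 under a synonym that marks it as the upstream open reading frame of the Pepck1 transcript. CG45087 is not listed in either library under its own number, so the counts cannot be divided between these genes. The deposited gene model of Pepck1 is 2653 bases long and thus not the model of that annotation.

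Pepck2, the paralog of Pepck1, lies directly upstream of it on the same strand with no annotated gene between them, yet its level was far lower. Control diet gave 22 reads of it and sucralose 33, or 0.620 and 0.916 RPKM, and reads covered 22.5% and 35.5% of its gene model. Per length, Pepck1 stood 319.8 times above Pepck2 under control diet and 571.4 times above it under sucralose. The fold of Pepck2 was 1.47 (0.833 to 2.65), an interval that holds both no difference and the fold of Pepck1.

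At that depth the paralogs cannot be separated by their folds. The fold of Pepck1 divided by that of Pepck2 was 1.79, with an interval of 0.991 to 3.16. Reads of Pepck2 amounted to 0.407% of those of Pepck1 under control diet and 0.228% under sucralose. Only unique reads were counted, so reads that match both paralogs would be missing from both. Of the 185 genes within 2-fold of the level of Pepck2, 10.8% were at least 1.5-fold higher and 11.4% at least 1.5-fold lower, far above the shares over all genes. A log2 difference of 0.47 at this level is therefore common.

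The enzyme gene fbp, which removes a phosphate from fructose 1,6-bisphosphate, gave 355 reads under control diet and 375 under sucralose. Its levels were 28.6 and 29.8 RPKM, with 93.8% and 94.6% of the gene model covered. The fold was 1.04 (0.894 to 1.20), and the log2 difference was 0.05, above that of 60.3% of all genes. Counting error alone left room for a difference between these libraries of up to 1.20-fold upward or 1.12-fold downward, short of that of Pepck1.

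G6P, which encodes the phosphatase of the last step, gave 84 reads under control diet and 77 under sucralose. That is 6.85 and 6.18 RPKM, with 86.4% and 87.6% of the gene model covered. It was the only one of the 5 genes with a lower value in the sucralose library, with a fold of 0.899 (0.651 to 1.24) and a log2 difference of -0.14. The interval includes no difference and reaches 1.54-fold lower, so at this depth counting error alone spans a moderate difference in either direction. Of the exon bases of G6P, 7.87% are shared with CG2964 on the opposite strand, and reads of opposite strands may be mixed.

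**Figure D3:**
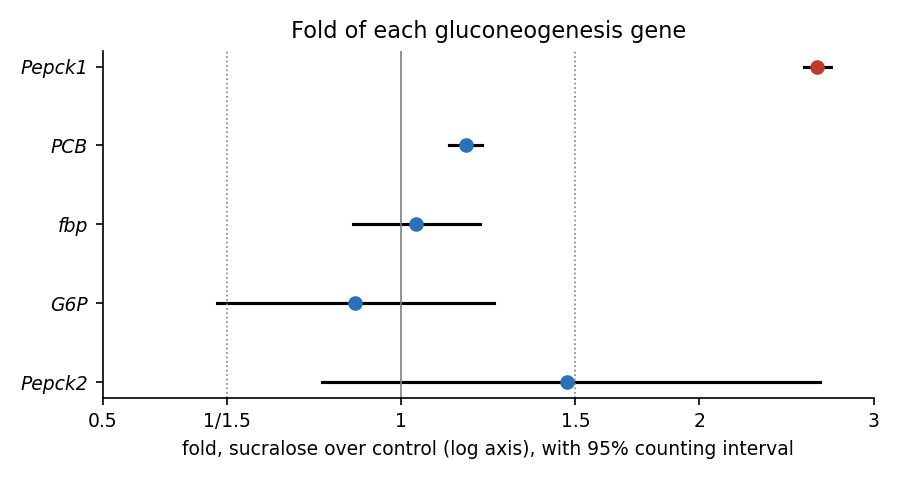
Fold of scaled read counts, sucralose library over control library, for the 5 genes on a log axis, with 95% exact binomial intervals for counting error, a solid line at no difference and dotted lines at 1.5-fold either way. The interval of Pepck1 (2.55 to 2.71) meets none of the other intervals except that of Pepck2 (0.833 to 2.65), the widest of the 5.

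Set against each other within the same libraries, Pepck1 differed from 3 of the other 4 genes by more than counting error. Its fold was 2.26 times that of PCB (2.15 to 2.38), 2.54 times that of fbp (2.18 to 2.95) and 2.92 times that of G6P (2.12 to 4.04). Among the remaining 4 genes, every pairwise interval of the ratio of folds included no difference. For fbp against PCB, the most deeply read of these pairs, the ratio was 0.892 (0.765 to 1.04). The 4 less abundant genes thus cannot be ranked by their folds at this depth, whereas Pepck1 was set apart from PCB, fbp and G6P.

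With 1 value per diet, likeness of pattern reduces to likeness of fold. Among genes with at least 200 summed reads and a mean RPKM within 2-fold of Pepck1, 292 in number, the nearest in log2 difference was CG13315, which had 2408 and 5828 reads and was 2.37-fold higher (2.26 to 2.49). Tat, the tyrosine aminotransferase that opens tyrosine breakdown, came next with 2843 and 5217 reads and was 1.80-fold higher (1.72 to 1.89). The third was BomS6, an immune-induced Bomanin peptide gene, at 1.63-fold higher (1.47 to 1.79). The gaps to Pepck1 in log2 difference were 0.15, 0.55 and 0.70, so few abundant genes came near it.

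The other members had close company. For PCB the nearest of 1081 genes were CG16756, CG9674 and Mob2, all with a log2 difference between 0.21 and 0.22. For fbp the nearest of 3581 genes were pps, Fife, a protein of presynaptic active zones, and Ubr1, all at 0.05. For G6P the nearest of 2008 were CG10866, cbc and the octopamine-tyramine receptor gene Oct-TyrR, all at -0.14. Pepck2 had 2 candidates at its low level, the dynein heavy chain gene Dhc36C at 0.31 and btv at -0.50.

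The enzymes that gluconeogenesis shares with glycolysis were all lower in the sucralose library by small amounts. Of 9 listed genes for these reversible steps, 8 passed the floor, and none of the 8 reached 1.5-fold. Where 49.6% of all genes were above 0, all 8 were below it, with a median log2 difference of -0.34. Ald1, the aldolase gene and the most abundant of them, had 18296 and 14372 reads and a fold of 0.771 (0.754 to 0.788). Gapdh1, for glyceraldehyde-3-phosphate dehydrogenase, had the largest difference, with 6835 and 4831 reads and a fold of 0.693 (0.668 to 0.720). Pgi, the glucose-6-phosphate isomerase gene, had the smallest, with a fold of 0.855 (0.818 to 0.892). Together these genes, Pglym87 under the floor included, gave 57652 reads under control diet and 46281 under sucralose, a fold of 0.788 (0.778 to 0.797), opposite in direction to Pepck1. Of the exon bases of Ald1, 8.87% are shared with an antisense gene.

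Enzymes that work against gluconeogenesis at its irreversible steps differed less evenly. Of 6 listed genes, 3 passed the floor and none reached 1.5-fold, with a median of 0.06. Pfk, the phosphofructokinase gene that opposes fbp, had 4075 and 3281 reads and a fold of 0.790 (0.754 to 0.827). Hex-A, the main hexokinase gene, had 3602 and 3839 reads and a fold of 1.05 (0.999 to 1.09), and Hex-C, singled out after its values were seen, had a fold of 1.12 (1.01 to 1.24). Per length, Pfk stood 3.95 times above fbp under control diet and 3.01 times above it under sucralose. Hex-A stood 13.0 times and 15.2 times above G6P. At both steps the glycolytic gene was thus the more abundant under either diet. The pyruvate kinase gene Pyk matched no listed identifier, and Hex-t1 and Hex-t2 had at most 4 reads in a library.

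**Figure D4:**
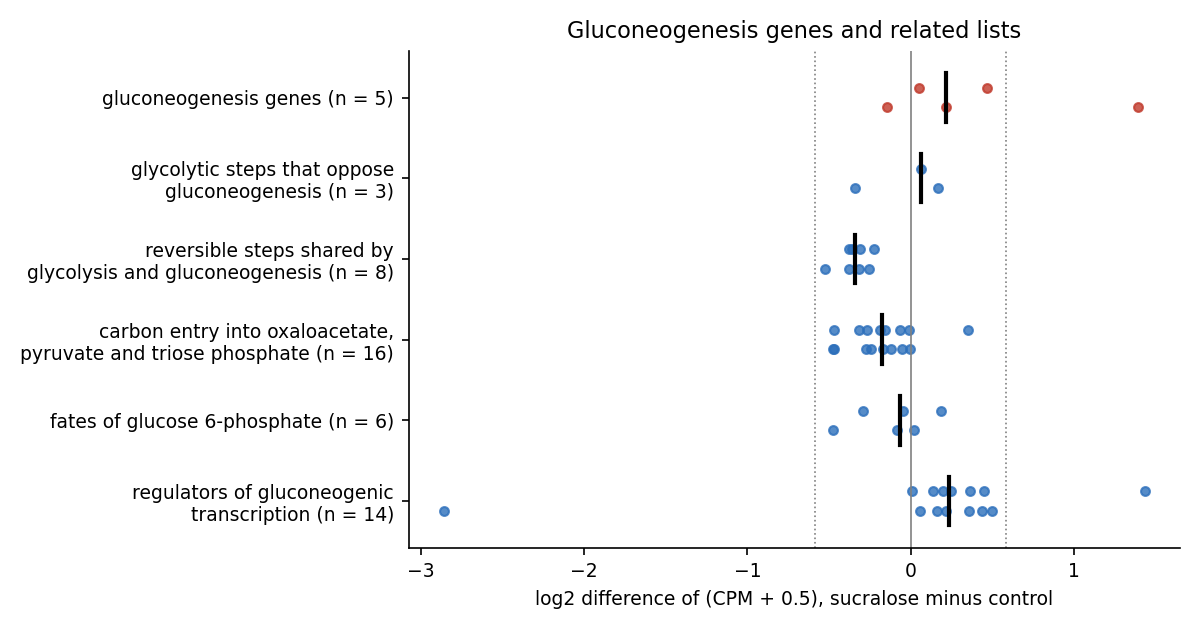
Log2 difference of (CPM + 0.5), sucralose minus control, for the 5 gluconeogenesis genes (red) and the members over the floor of 5 related lists (blue), with a bar at each median and dotted lines at 1.5-fold. Pepck1 (1.39) and sug (1.43) lie to the right of the dotted lines and Akh (-2.86) to the left, while all 8 reversible-step genes lie between -0.53 and -0.23.

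Genes that bring carbon to oxaloacetate, pyruvate and triose phosphate were mostly slightly lower. All 16 listed genes passed the floor and none reached 1.5-fold, with a median of -0.18. While 49.6% of all genes were above 0, 15 of the 16 were below it. Men-b, a malic enzyme gene, had the largest difference, with 3092 and 2267 reads and a fold of 0.719 (0.681 to 0.760). Mdh2, the mitochondrial malate dehydrogenase and the most abundant member, had 5266 and 4449 reads and a fold of 0.829 (0.796 to 0.863). Men, the other malic enzyme listed, differed least, at 0.996 (0.956 to 1.04). The single member above 0 was Gk2, a glycerol kinase gene named after its value was seen, with 503 and 654 reads and a fold of 1.28 (1.13 to 1.44).

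Genes for the fates of glucose 6-phosphate showed no common direction. Of 7 listed, 6 passed the floor, 2 of these were above 0, against 49.6% of all genes, and none reached 1.5-fold, with a median of -0.07. Tps1, the trehalose-6-phosphate synthase gene and the most abundant, had 6320 and 6222 reads and a fold of 0.966 (0.932 to 1.0004). Zw, the glucose-6-phosphate dehydrogenase gene that opens the pentose phosphate pathway, had 799 and 584 reads and a fold of 0.717 (0.643 to 0.799), although 16.4% of its exon bases are shared with other genes. Pgm1, for phosphoglucomutase, differed least, at 1.02 (0.954 to 1.08).

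Regulators of gluconeogenic transcription were mostly slightly higher in the same library as Pepck1. The list was not divided by whether a member promotes or restrains gluconeogenesis. Of 15 listed genes, 14 passed the floor, with a median of 0.23, and 13 of these were above 0, against 49.6% of all genes. Of these 13, Crtc and, named after their values were seen, Lkb1, ERR and bigmax had counting intervals that included no difference. By at least 1.5-fold, 1 of the 14 was higher and 1 lower, where the shares over all genes were 1.96% and 4.12%. The higher gene was sug, a sugar-responsive zinc finger factor, with 196 and 548 reads and a fold of 2.74 (2.33 to 3.25), the member closest to Pepck1 in fold. The lower gene was Akh, the glucagon-like hormone of the fly, with 89 and 8 reads, 11.3-fold lower (5.51 to 27.1), while its receptor gene AkhR, named after its value was seen, had a fold of 1.29 (1.17 to 1.43). Summed reads of the gut markers differed alike, 2421 under control diet against 218 under sucralose or 11.3-fold lower, and their part in the value of Akh was not tested. REPTOR-BP, the partner of a starvation-response factor and the most abundant member per length, had 395 and 547 reads and a fold of 1.36 (1.19 to 1.55). Crtc, the CREB coactivator gene, differed least, at 1.004 (0.913 to 1.10), and foxo, also named after its value was seen, had a fold of 1.15 (1.06 to 1.25).

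Tissue markers also differed between the libraries, and their part in the values of Pepck1 or of the glycolytic genes was not tested. Fat body, where fly gluconeogenic enzymes are prominent, had 8 of 11 listed markers over the floor. Of all genes, 1.96% were at least 1.5-fold higher and 4.12% lower. Of these 8 markers, 2 were higher by as much and 2 lower, with a median log2 difference of -0.0048. Their summed level was 659.9 RPKM under control diet and 674.4 RPKM under sucralose. The most abundant, the lipoprotein gene apolpp, had a fold of 1.02 (1.003 to 1.03) and carried most of that sum. Picked out after their values were seen, the 2 higher markers were the yolk protein genes Yp1 and Yp3, with folds of 5.54 and 1.83, and the 2 lower ones the storage protein genes Lsp2 and Lsp1beta, with folds of 0.177 and 0.534. The markers of this list thus went far in both directions. Other annotated genes share 54.3% of the exon bases of Yp1 and 84.6% of those of Lsp2. None of the matched fat body markers was at 0 in either library.

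The remaining marker lists moved in several directions. Over all genes, the shares at least 1.5-fold higher and lower were 1.96% and 4.12%. Muscle markers, most abundant in Mhc, had a median of -0.60 and summed to 1112 and 749.6 RPKM, with 5 of 9 (Act88F, Act79B, fln, Mlc2 and up) at least 1.5-fold lower and none at 0, although 61.6% of the exon bases of fln are shared with an antisense gene. Glial markers, most abundant in Gs2, had a median of -0.60 and summed to 1409 and 891.8 RPKM, with none at 0. Of 10, 6 (alrm, Gat, Gs2, Inx2, Eaat1 and nrv2) were at least 1.5-fold lower. The others differed little, with folds of 0.956 (repo), 0.912 (moody), 1.02 (loco) and 1.08 (wrapper). Gut markers, most abundant in Jon65Aiv, had a median of -4.36 and summed to 213.5 and 14.4 RPKM, with all 8 that passed the floor at least 1.5-fold lower and Jon99Cii at 0 in the sucralose library. Whether gut or other tissue from outside the head gave reads to either library was not tested. By median, the muscle, glial and gut lists were below 0, as were the reversible glycolytic enzymes. So, by little, were the neuronal (-0.05) and fat body (-0.0048) lists. The photoreceptor (0.36) and oenocyte (0.67) lists were above 0, like Pepck1. Whether these directions are related was not tested.

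Neuronal markers differed little, with a median of -0.05, none of 9 past 1.5-fold, and sums of 1509 and 1434 RPKM led by nSyb. Photoreceptor markers were all 10 above 0, with a median of 0.36, 2 (ninaA and Rh4) at least 1.5-fold higher, and sums of 39240 and 53790.2 RPKM led by ninaE. Over all genes, 49.6% were above 0 and 1.96% at least 1.5-fold higher. Every exon base of ninaA is also annotated to CG15824 on the opposite strand, and the reads of that pair may be mixed. Of 3 oenocyte markers that passed the floor, 2 (Cyp4g1 and FASN2) were higher by at least 1.5-fold, with a list median of 0.67 and none at 0. The remaining marker, Cpr, was lower, with a fold of 0.865 (0.822 to 0.909). Cyp4g1, an oenocyte enzyme of hydrocarbon synthesis, was read 20 and 365 times, with a fold of 17.9 (11.4 to 29.7). FASN2 was read 24 and 42 times, with a fold of 1.72 (1.02 to 2.96). The sums of 117.7 and 117.0 RPKM were mostly Cpr, at 116.5 and 101.1 RPKM, while Cyp4g1 stood at 0.855 and 15.4 RPKM. Neuronal and photoreceptor genes, which mark the labelled tissue, were abundant in both libraries, and none of those matched was at 0.

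**Figure D5:**
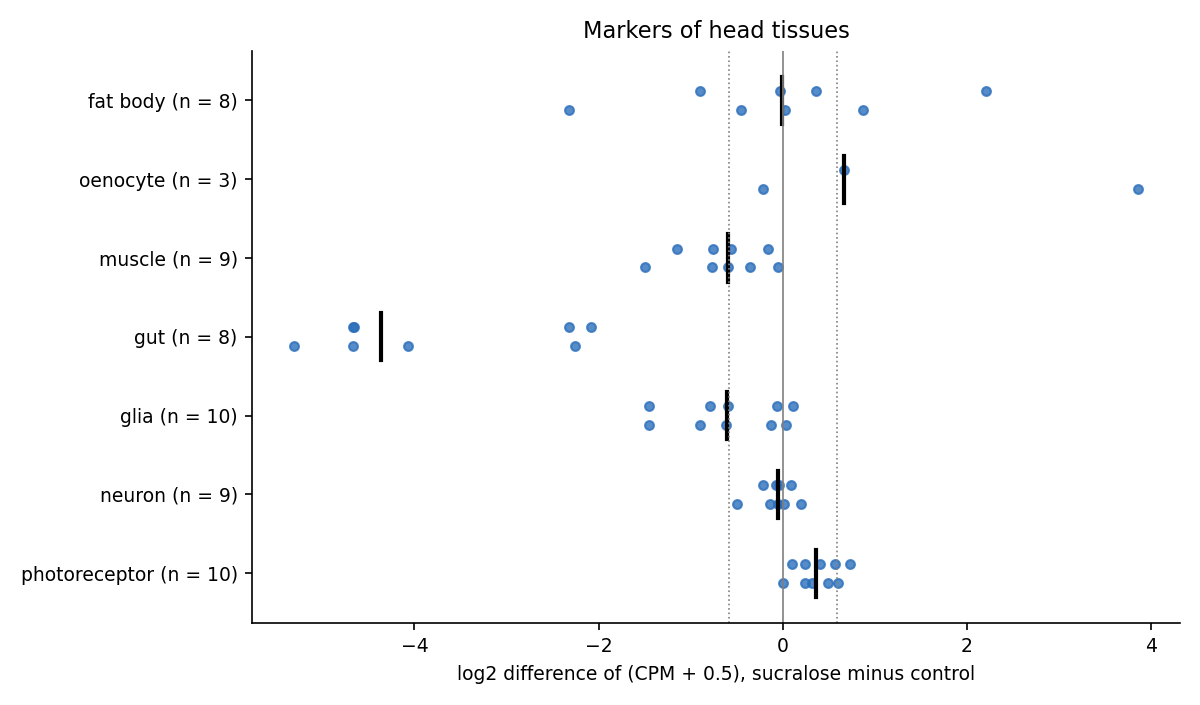
Log2 difference of (CPM + 0.5), sucralose minus control, for the members over the floor of 7 tissue marker lists, with a bar at each median and dotted lines at 1.5-fold. Gut markers (median -4.36) lie far to the left, the medians of muscle and glial markers (both -0.60) lie to the left, and fat body markers spread on both sides of 0. Jon99Cii, with 0 reads in the sucralose library, is placed by the pseudocount.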

How the data were processed

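Per the labels, head RNA was taken up in Trizol and sequenced from Illumina libraries. The authors deposited 1 table per library. Per the file headers, counts are unique reads per gene, and they sum to the total in the header. The deposited RPKM equals the count per kilobase of the deposited gene length and per 1 M reads of that total. Coverage is deposited as a percent of the gene model. Deposited lengths (other values) differed between the tables for 7 genes, none of the 5 described. The sources used here give no aligner, genome build, annotation release or strandedness, so no coordinates are printed, and the BDGP6.54 annotation served only for exon overlap and neighbours.

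Identifiers were matched to symbols through a table of FlyBase numbers, and 496 of 12083 had no match. Scaling of counts was by the trimmed mean of M-values (TMM) in edgeR 4.0.16 under R 4.3.3, with factors of 0.998 and 1.002, with a pseudocount of 0.5 CPM. Ratios of 2 folds have exact conditional intervals from the 2 by 2 table of reads. The libraries carry no known molecular identifiers, so PCR copies count as separate reads and intervals cover counting error only. Scripts ran in Python 3.11.15 with SciPy 1.17.1 and were tested on simulated data. Alternatives were total-count, upper-quartile and DESeq2 1.42.0 scaling, TMM without the 20 most abundant genes, RPKM ratios, pseudocounts of 0.1 and 5 CPM, other filters, a 2-fold mark and list means.

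The 5 genes and all lists were chosen with earlier results of these data known. Named are the 5 genes and their 3 genes of most like fold at like level. Of each pathway list, the rule names members past 1.5-fold, the largest and smallest difference, and the most abundant member. Genes sharing exon bases with the 5, and the most abundant marker of each list, are also named.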

Additional observations from a re-analysis of the deposited data

How the results depend on the processing

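The log2 difference of Pepck1 ranged from 1.39 to 1.41 over 7 alternatives of scaling and pseudocount, that of PCB from 0.21 to 0.23, that of fbp from 0.05 to 0.06 and that of G6P from -0.15 to -0.09. Pepck2, with the fewest reads, ranged from 0.19 with a pseudocount of 5 CPM to 0.56 with RPKM ratios, which stayed inside its counting interval and under 1.5-fold. The number of all genes at least 1.5-fold higher was 174 and lower 366. It was 61 and 206 with a pseudocount of 5 CPM, 459 and 695 with no filter, 84 and 216 with at least 200 summed reads, and 30 and 122 at the 2-fold mark. For the list of opposing glycolytic steps the mean was -0.036 against a median of 0.06, which differ in sign through Pfk. For the regulators the mean was 0.12 against a median of 0.23, lowered by Akh. In total, 90 of the recomputed values moved by less than a set bound, and 10 moved by more. The bound was counting error for single genes, that of the gene nearest the median for lists, and 1.5 times for counts of genes. Among the 90 are list medians that dropping the filter left identical because every matched member had passed the floor. The median of the opposing glycolytic steps also stayed identical, as the added Hex-t1 (-0.83) and Hex-t2 (0.65) fell on either side of it. No paired analysis was possible because each diet had 1 library, and for the same reason no replicate could be left out. Depth limits Pepck2 and G6P most.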
